A study of Mus musculus with 6 samples.

Results

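The GIMAP genes were read in mouse cytotoxic T cells that carry, or do not carry, a phosphorylation-deficient mutant of the histone deacetylase HDAC7. All probe sets that the annotation of the Affymetrix whole-genome mouse array assigns to exactly 1 of the symbols Gimap1, Gimap3, Gimap4, Gimap5, Gimap6, Gimap7, Gimap8 and Gimap9 were taken. This gave 11 of the 45101 probe sets on the array, covering all 8 genes, with 2 probe sets each for Gimap4, Gimap6 and Gimap7 and 1 for each other gene. The rule itself uses symbols and no signal value, but the family was chosen with earlier results of these data known. P14 cells bear a transgenic T cell receptor for the gp33 peptide of a mouse virus. Spleen cells of P14 mice on the C57Bl/6 strain were stimulated with gp33 for 24 h and given a retrovirus encoding the mutant fused to GFP. They were then sorted into 3 GFP positive samples, which carry the mutant, and 3 GFP negative samples, labelled as control. All 6 samples therefore share the transgenic receptor, the peptide and the exposure to the virus, and a culture infected with empty vector was not analysed here. Each group's samples are labelled as biological replicas, with no animal or culture named, so the p-values speak only to the spread among these 6 samples.

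GIMAP proteins are GTPases of immunity-associated proteins, a vertebrate family with a guanine nucleotide-binding domain of the AIG1 type. They are made mainly in lymphocytes, several of them sit on intracellular membranes, and they are best known for the survival and upkeep of peripheral T and B cells. Loss of Gimap5 causes lymphopenia in rats and mice. Class IIa deacetylases such as HDAC7 repress transcription in the nucleus, and phosphorylation drives them out to the cytoplasm.

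All 8 genes were lower in GFP positive cells. Each of the 11 probe sets passed the threshold in that direction, with limma changes of -1.88 to -0.49 on the log2 scale, equal to 1.41-fold to 3.68-fold lower signal, and adjusted p of 1.64e-04 to 0.0218 over the 27022 probe sets tested. Of all probe sets tested, 13.2% were called lower and 19.3% higher. All 11 passed the filter on dim probe sets. On every one of them the 3 GFP positive arrays lay below the 3 GFP negative arrays, a pattern found in 22.2% of the probe sets tested. Without GFP negative 1 and GFP positive 3 together, 7 of the 11 were called lower, beside 5.95% of all probe sets tested in that setting. The median change of the 11 was -0.97, against -0.02 over all probe sets tested. RNA was taken from whole sorted samples, so fewer cells of a type and less RNA per cell cannot be told apart.

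**Figure D1:**
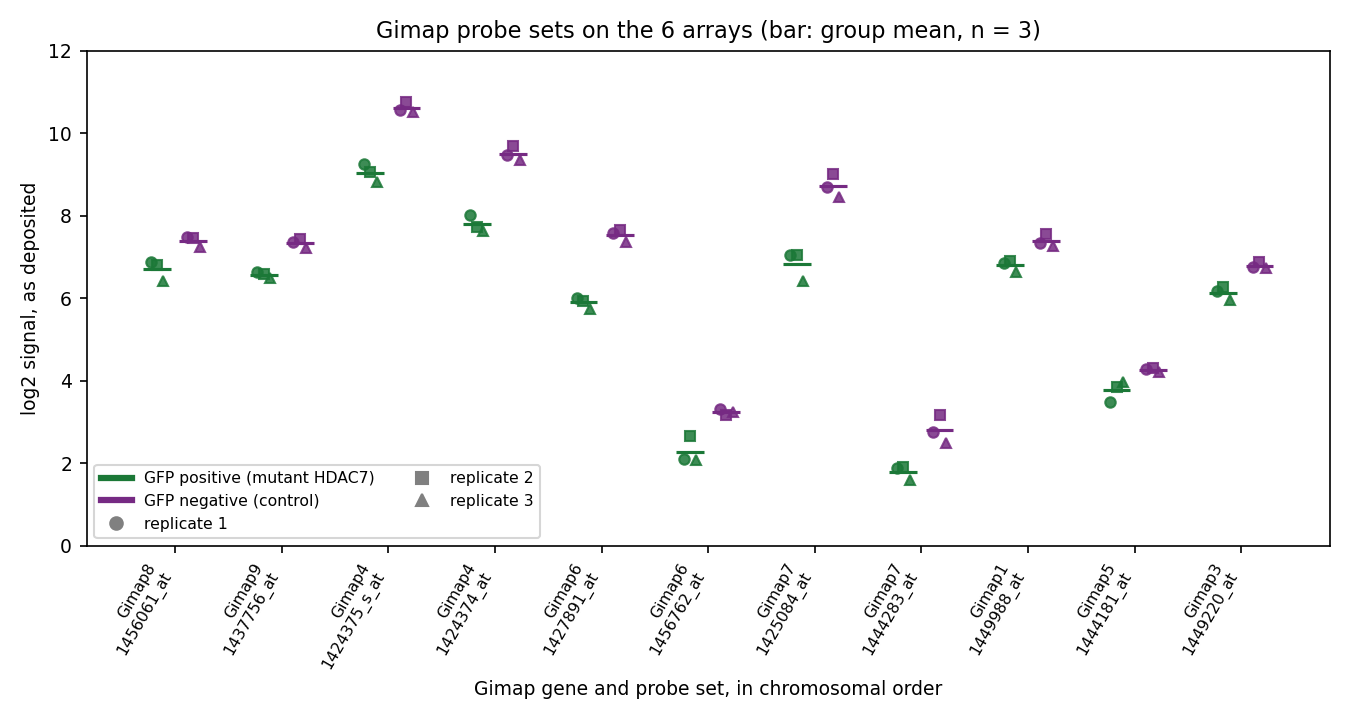
Log2 signal of the 11 Gimap probe sets on each array, with genes in chromosomal order, GFP positive samples left of GFP negative ones, a symbol for each replicate number and a bar at the group mean (n = 3). In all 11 probe sets the GFP positive points lie below the GFP negative points, with the widest gaps at Gimap4, Gimap6 and Gimap7.

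The array medians differed by little, though without overlap between groups. The median log2 signal over all probe sets was 1.63 to 1.67 on GFP positive arrays and 1.69 to 1.72 on GFP negative arrays. Over the probe sets tested the order was the opposite, at 3.61 to 3.70 on GFP positive and 3.53 to 3.57 on GFP negative arrays. The 18 hybridisation controls were also brighter on all 3 GFP positive arrays, with means of 8.18 to 8.50 in GFP positive and 8.07 to 8.14 in GFP negative samples. The brightest was GFP positive 3. Without it all 11 Gimap probe sets were called lower by limma, beside 9.64% of all probe sets tested. Leaving it out does not remove the difference, since the other GFP positive arrays were also brighter than every GFP negative array. The part of these differences in the Gimap changes was not tested. The TrpnX controls, made to bind no mouse RNA, read 0.60 to 0.72 on GFP positive and 0.60 to 0.65 on GFP negative arrays, below every Gimap value. The 3′ over 5′ difference of the actin control, a measure of RNA integrity, was 0.48 to 0.53 on GFP positive and 0.43 to 0.51 on GFP negative arrays. The labels were checked on Hdac7: its probe set 1420812_at was 9.95-fold higher in GFP positive cells. The other set, 1420813_at, was called in the opposite direction, at -0.55 (limma adjusted p = 0.0022), and its groups did not overlap.

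The 8 genes lie side by side on mouse chromosome 6. The RefSeq gene table (assembly GRCm38.p6) gives the order Gimap8, Gimap9, Gimap4, Gimap6, Gimap7, Gimap1, Gimap5, Gimap3, with 0 other protein-coding genes between them. Gimap4, Gimap6 and Gimap7 are the 3 genes with the larger falls, and Gimap5 had the smallest over all 6 arrays. To show the letters beside the values, the 250 bases before the RefSeq start site are printed for these genes. Each is written 5′ to 3′ on the gene's strand, and capitals mark TGTGGT (a core of the RUNX motif) or GGAAGT (an ETS core) on either strand, so that ACCACA is TGTGGT on the opposite strand. The windows are chr6:48684328-48684577 (plus strand) for Gimap4, chr6:48708245-48708494 (minus strand) for Gimap6, chr6:48718371-48718620 (plus strand) for Gimap7 and chr6:48745947-48746196 (plus strand) for Gimap5.
Gimap4: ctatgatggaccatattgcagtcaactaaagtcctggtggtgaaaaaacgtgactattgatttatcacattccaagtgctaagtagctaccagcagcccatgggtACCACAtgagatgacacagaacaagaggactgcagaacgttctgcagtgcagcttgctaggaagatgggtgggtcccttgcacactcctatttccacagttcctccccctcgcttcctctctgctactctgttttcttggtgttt
Gimap6: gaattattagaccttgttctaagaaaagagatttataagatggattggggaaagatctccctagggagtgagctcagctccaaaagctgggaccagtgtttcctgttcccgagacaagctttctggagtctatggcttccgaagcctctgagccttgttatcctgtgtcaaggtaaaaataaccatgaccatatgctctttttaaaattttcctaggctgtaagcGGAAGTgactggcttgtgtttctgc
Gimap7: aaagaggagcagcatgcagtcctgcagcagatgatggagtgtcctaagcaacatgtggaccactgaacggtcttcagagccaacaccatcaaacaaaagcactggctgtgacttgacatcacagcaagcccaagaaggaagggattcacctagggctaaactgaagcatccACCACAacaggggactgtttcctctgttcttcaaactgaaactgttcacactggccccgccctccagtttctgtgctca
Gimap5: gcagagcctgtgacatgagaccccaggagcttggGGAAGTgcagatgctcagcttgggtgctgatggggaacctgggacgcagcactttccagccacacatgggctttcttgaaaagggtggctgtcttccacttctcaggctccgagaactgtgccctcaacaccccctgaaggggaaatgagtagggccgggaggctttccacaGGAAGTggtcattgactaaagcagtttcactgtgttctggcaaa

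In the full RefSeq windows, which run from 250 bases before to 50 after the start, 4 motifs were searched on both strands. The 8 genes have 9 windows, since Gimap8 has more than 1 start. TGTGGT was found in 3 of the 9 (Gimap4, Gimap7 and Gimap1) and in 16.8% of all 32851 windows of that length. GGAAGT was found in 4 of the 9 (Gimap9, Gimap6, Gimap1 and Gimap5) and in 23.8% of all windows. The forkhead core GTAAACA was found in Gimap3 alone of these genes and in 3.65% of all windows. The MEF2 motif, the site of transcription factors that class IIa deacetylases bind, was in 0 of the 9 and in 3.19% of all windows. The searched motifs do not overlap one another here. Gimap4 and Gimap7 both held TGTGGT, Gimap6 did not, and 0 of the 4 motifs was common to all 3. A match describes letters only.

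Gimap4, Gimap6 and Gimap7 had the larger falls. Gimap4 is known to speed the death of T cells once apoptosis has begun. Its brighter probe set 1424375_s_at read 9.26, 9.06 and 8.82 (log2) in GFP positive samples 1 to 3, against 10.58, 10.76 and 10.52 in GFP negative samples 1 to 3. The groups are separated by 1.27, far more than the 0.43 or 0.24 that each group spans. The means were 9.05 ± 0.22 in GFP positive and 10.62 ± 0.12 in GFP negative cells (SD, n = 3 each), a change of -1.57 ± 0.13 (SE) with a limma adjusted p of 2.54e-04. The other Gimap4 probe set, 1424374_at, changed by -1.71 ± 0.13 (SE), so both read a fall of about the same size. The suffix _s_at marks a probe set whose probes can match more than 1 transcript.

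Gimap6 encodes a family member that binds GABARAPL2, an ATG8-type protein of autophagy. Its brighter probe set 1427891_at read 6.02, 5.94 and 5.74 in GFP positive samples, against 7.57, 7.66 and 7.36 in GFP negative samples. The samples of each group lay close together and the gap between groups was 1.34. The change was -1.63 ± 0.12 (SE), or 3.10-fold lower signal, with the smallest limma adjusted p among the 11, at 1.64e-04. The dimmer probe set 1456762_at averaged 2.28 ± 0.34 in GFP positive and 3.25 ± 0.07 in GFP negative cells (SD, n = 3 each), a change of -0.97.

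Gimap7 encodes a GTPase whose human counterpart is activated when the protein dimerises. On 1425084_at it read 7.06, 7.05 and 6.42 in GFP positive samples, against 8.70, 9.02 and 8.45 in GFP negative samples. Although both groups were spread more widely than for Gimap4 or Gimap6, they stayed apart by 1.40. The change of -1.88 ± 0.21 (SE), or 3.68-fold lower signal, was the largest of the family on the deposited scale (limma adjusted p = 6.54e-04). The dimmer probe set 1444283_at averaged 1.79 ± 0.18 in GFP positive and 2.80 ± 0.35 in GFP negative cells (SD, n = 3 each), a change of -1.01.

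The other 5 genes fell by less. Gimap9 read 6.64, 6.60 and 6.49 in GFP positive samples, against 7.37, 7.43 and 7.21 in GFP negative samples. The samples of each group lay close together, and the change was -0.76 ± 0.09 (SE; limma adjusted p = 9.48e-04). Gimap8, whose protein is the longest of the family and carries several GTPase domains, read 6.87, 6.80 and 6.42 in GFP positive samples, against 7.48, 7.46 and 7.25 in GFP negative samples. The third sample was the lowest of its group in both. The change was -0.70 ± 0.14 (SE; limma adjusted p = 0.0068).

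Gimap1, which mature T and B cells of mice need to persist, read 6.85, 6.91 and 6.65 in GFP positive samples, against 7.34, 7.55 and 7.26 in GFP negative samples. The gap between groups was 0.36, and the change was -0.58 ± 0.11 (SE; limma adjusted p = 0.0065). Gimap3, a close relative of Gimap5 that in mice also bears on T cell numbers, read 6.18, 6.27 and 5.97 in GFP positive samples, against 6.75, 6.88 and 6.74 in GFP negative samples. Its groups did not overlap either, and the change was -0.65 ± 0.10 (SE; limma adjusted p = 0.003). The RefSeq table lists Gimap5 as an older name of Gimap3, and the transcript that the annotation gives for this probe set is RefSeq's Gimap3. Whether probes of either gene bind the other's transcript was not tested.

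Gimap5, the member whose loss causes lymphopenia, had the smallest fall. Among the probe sets that stand for the 8 genes, its own was the dimmest. In Gimap6 and Gimap7 the dimmer set read a smaller fall than the brighter one. The part of dimness in the rank of Gimap5 was not tested. Gimap5 read 3.49, 3.85 and 3.96 in GFP positive samples, against 4.29, 4.30 and 4.21 in GFP negative samples. The nearest samples of the groups were 0.25 apart. The change was -0.49 ± 0.13 (SE; limma adjusted p = 0.0218). The call ended when GFP negative replicate 1, 2 or 3 was left out, with changes of -0.48, -0.48 and -0.52 and limma adjusted p of 0.0687, 0.0672 and 0.0521.

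The falls differed in size between the genes. The brighter probe sets of the 3 genes with the larger falls changed by -1.88 to -1.57, and the 5 other genes by -0.76 to -0.49. This split was made after the values were seen and has no test. Signals of 2 genes were also subtracted within each array. For example, in a pair taken from either side of the split, Gimap4 minus Gimap1 was 2.25 ± 0.14 in GFP positive and 3.23 ± 0.03 in GFP negative cells (log2, SD, n = 3 each), a change of -0.99. Over all 28 pairs of the 8 genes, 16 had groups that did not overlap. They were all 15 pairs from either side of the split and 1 of the 13 within a side, so the count restates the split. The share among pairs of other genes was not computed. The pairs share genes, so this count is a description. With 3 arrays against 3 an exact permutation test, two-sided, cannot give a p under 0.1. The 3 genes are neighbours in the cluster, with Gimap8 and Gimap9 on one side and Gimap1, Gimap5 and Gimap3 on the other.

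**Figure D2:**
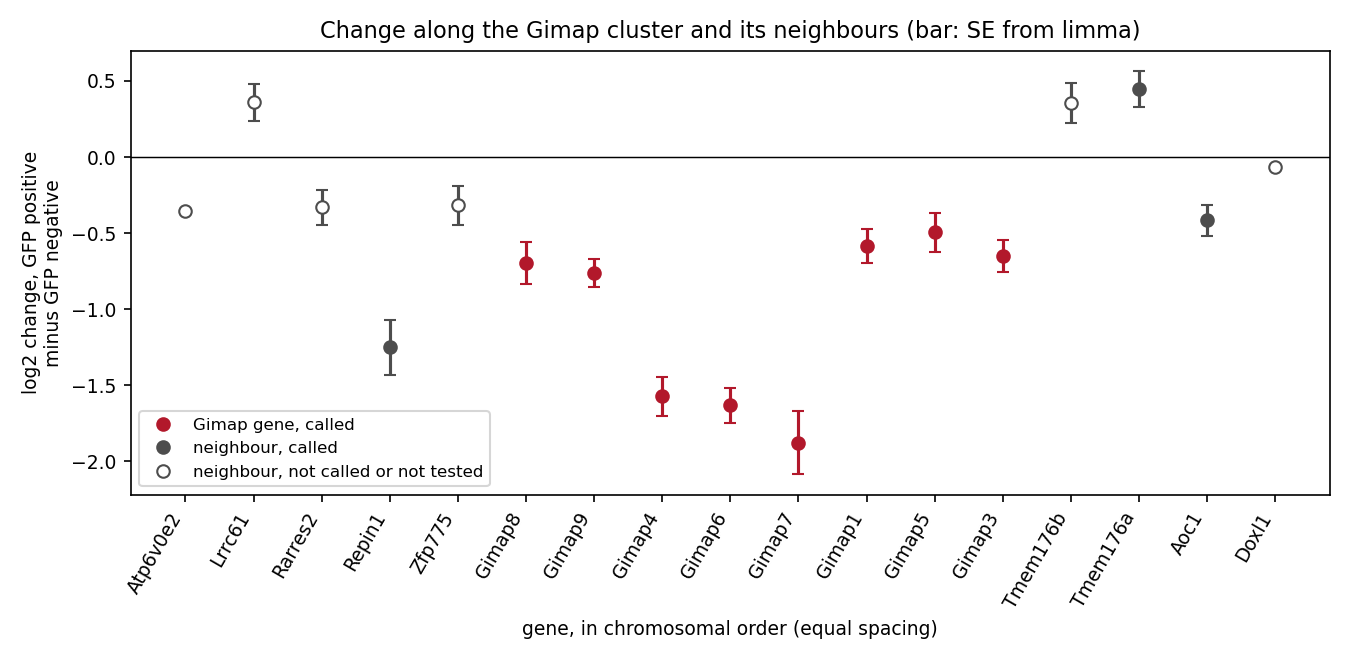
Log2 change (GFP positive minus GFP negative) of the brightest probe set of each gene along the cluster and its nearest protein-coding neighbours, equally spaced in chromosomal order, with the SE from limma. The 8 Gimap genes lie between -1.88 and -0.49 with the lowest points at Gimap4, Gimap6 and Gimap7, and of the neighbours Repin1 (-1.25) is the lowest.

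How far the dimmer probe sets fell depended on the treatment of background. When the values were returned to linear units and raised by 32 before the log was taken, all 11 were still called lower by limma, at -1.63 to -0.14. Of all probe sets tested, 11.6% were called lower with this offset. The brighter sets of Gimap7, Gimap4 and Gimap6 changed by -1.63, -1.52 and -1.24 on that scale, and those of Gimap9, Gimap8, Gimap3 and Gimap1 by -0.61, -0.56, -0.48 and -0.47. The dimmer sets shrank by more than 1.5 times. Gimap5 changed by -0.16, the dimmer Gimap6 set by -0.17 and the dimmer Gimap7 set by -0.14. The differences between the brighter and the dimmer probe set of Gimap6 and of Gimap7, at -0.67 and -0.87 as deposited, were wider with the offset. Since 32 exceeds the linear signal of these dimmer sets, it shrinks their changes most by arithmetic. The widening is no separate result about the probe sets.

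**Figure D3:**
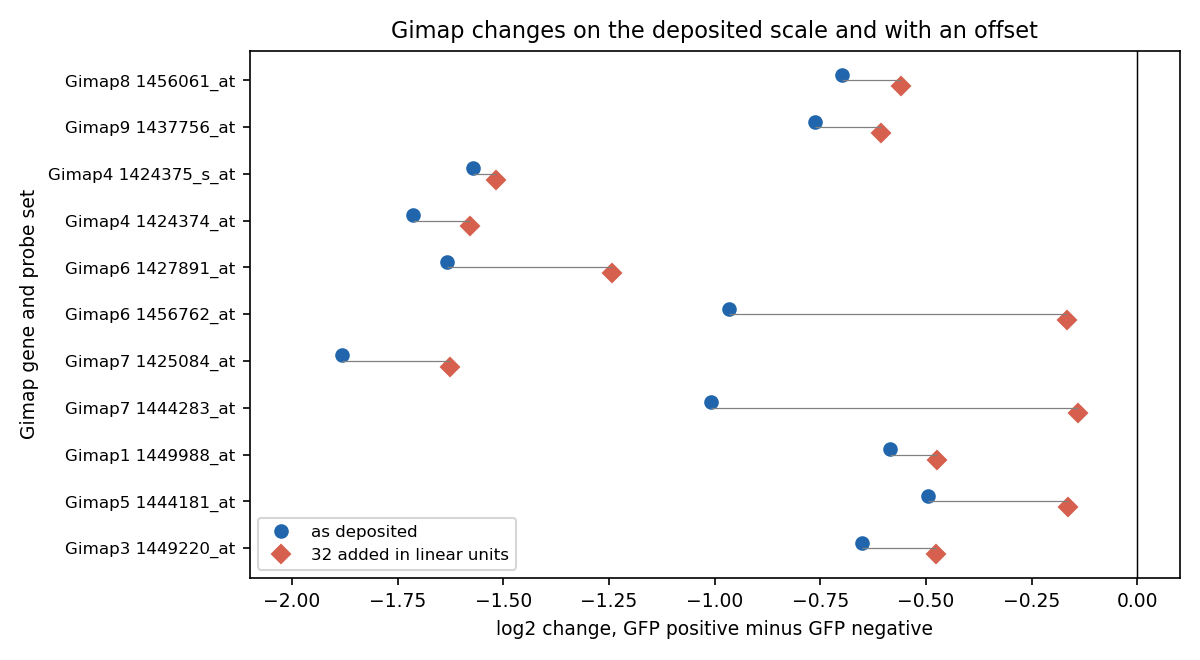
Log2 change of each Gimap probe set on the deposited scale (circles) and with 32 added in linear units (diamonds), with genes in chromosomal order. Gimap4 hardly moves, while Gimap5 and the dimmer sets of Gimap6 and Gimap7 move to between -0.17 and -0.14.

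Within each group the family tended to lie high or low as one. Array GFP positive 3 was the lowest of its group on 10 of 11 probe sets, and GFP negative 3 was likewise the lowest on 10 of 11. GFP negative 2 was the highest on 9 of 11. The median deviation of the 11 from their group means was -0.17 on GFP positive 3 and -0.12 on GFP negative 3, against 0.01 and 0.00 over all probe sets tested. Gimap5 was the exception among GFP positive samples, being highest on GFP positive 3 and lowest on GFP positive 1. The 11 values of an array come from the same RNA and the same hybridisation, and 3 genes count with 2 probe sets each. The share of all probe sets tested that were lowest on these arrays was not counted. Outside the family, Cd53 1448617_at was also lowest on the third array of each group. It was picked, as told below, for its likeness to Gimap4 over these arrays, so this match largely follows from the choice.

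**Figure D4:**
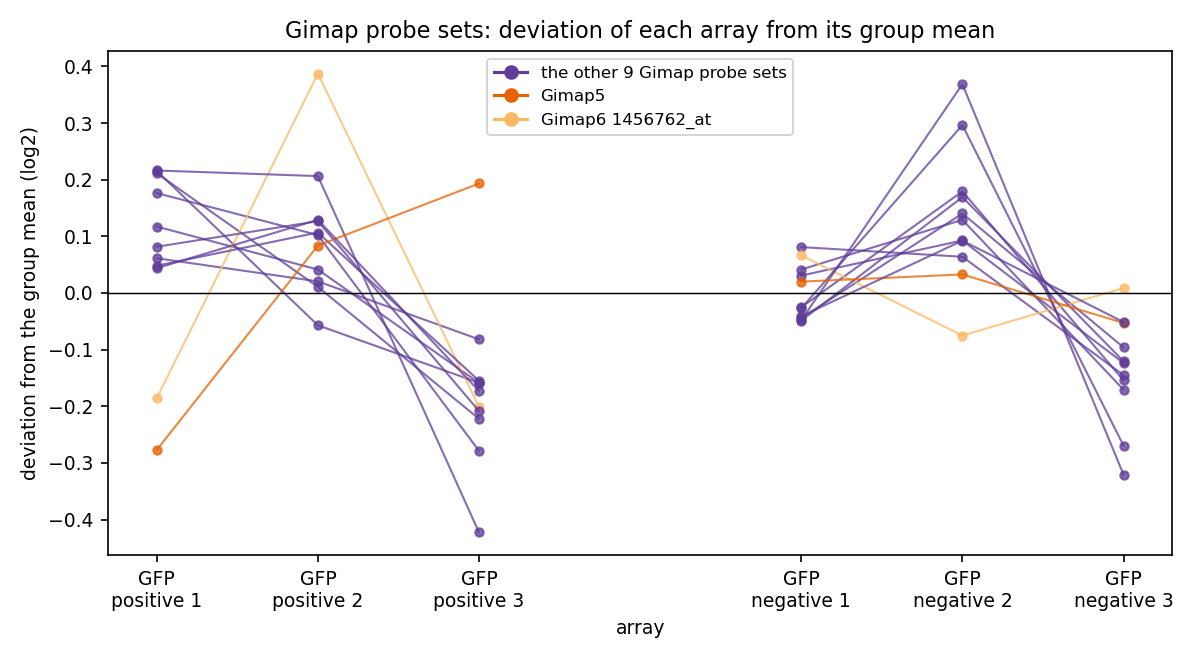
Deviation of each Gimap probe set from its group mean (log2) on every array, GFP positive left, with lines joining the values of a probe set within a group. Most lines dip at the third sample of each group. Gimap5 and the dimmer Gimap6 set run differently.

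Of the genes flanking the cluster, up to 6 protein-coding genes on each side, 9 of 12 are on the array under their symbol and 7 passed the dim filter. Of these, 2 were called lower, 1 higher and 4 did not pass, where 32.5% of all probe sets tested were called. Each neighbour stands for 1 probe set, and with 1 probe set per gene 3248 of 13194 were higher and 2309 lower. Repin1, a zinc finger gene on the Gimap8 side, averaged 2.87 ± 0.28 in GFP positive and 4.12 ± 0.28 in GFP negative cells (SD, n = 3 each), a change of -1.25 ± 0.18 (SE; limma adjusted p = 0.0019). A second Repin1 probe set past the filter changed by -0.85. Zfp775, which lies between Repin1 and Gimap8, changed by -0.32 and did not pass (limma adjusted p = 0.0894). On the Gimap3 side Tmem176a, which encodes a membrane protein of immune cells, was higher by 0.45 ± 0.12 (SE; limma adjusted p = 0.0252). Tmem176b, the nearest gene to Gimap3, changed by 0.36 and did not pass (limma adjusted p = 0.0765). Aoc1, an amine oxidase gene, was called lower at signals of 1.44 in GFP positive and 1.85 in GFP negative cells. With the offset of 32, Repin1 changed by -0.33, Tmem176a by 0.15, and Aoc1 lost its call (-0.04, limma adjusted p = 0.1). Aoc1 also lost it without GFP negative 3 or GFP positive 2 (-0.37 to -0.34), and Tmem176a when replicate 1 or 2 of either group was left out (0.39 to 0.42).

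The profile closest to that of Gimap4 over the 6 arrays belonged to Cd53, which encodes a tetraspanin of leukocytes. Likeness was the root mean square difference between values centred on their mean over the arrays, taken over the 23018 tested probe sets with 1 symbol. The second Gimap4 set, 1424374_at, differed by 0.085 and was left out of the ranking, which covers other genes. Cd53 differed from Gimap4 1424375_s_at by 0.061, the brighter Gimap6 set by 0.073, a dim second Cd53 set by 0.107, Lipt2 (an enzyme gene of lipoic acid synthesis) by 0.108 and Irak1bp1 by 0.113. Cd53 1448617_at read 8.46, 8.40 and 8.15 in GFP positive samples, against 9.85, 10.01 and 9.70 in GFP negative samples. It changed by -1.52 ± 0.12 (SE; limma adjusted p = 2.40e-04), and its groups did not overlap. Cd53 was picked for its closeness to Gimap4, so the size, p-value and separation follow from the choice and are no separate result. The dim Cd53 set, Lipt2 and Irak1bp1 changed by -0.24, -0.30 and -0.45 with the offset of 32, far less than the Gimap4 set. Their mean linear signals lie under the offset, which by arithmetic shrinks their changes more. Counting Gimap4 1424375_s_at itself as the first, Gimap7 1425084_at held place 57, and the 5 genes with the smaller falls held places 498 to 2306. Values were centred but not scaled, so these places reflect the size of a fall as well as its pattern.

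**Figure D5:**
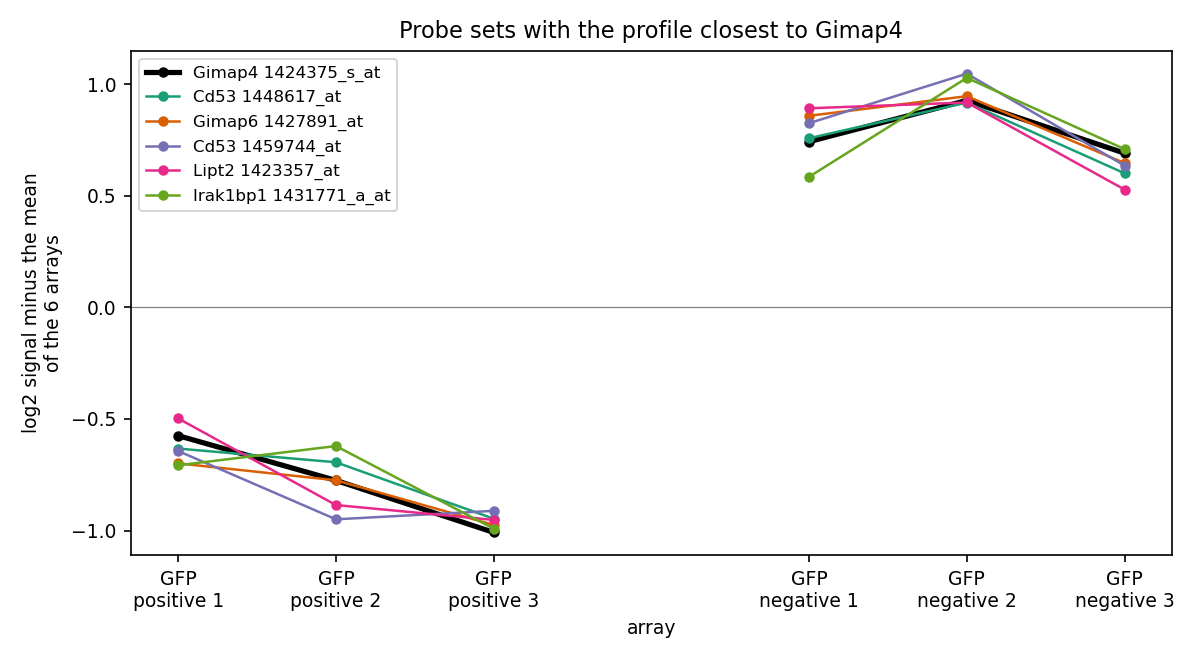
Log2 signal minus the mean of the 6 arrays for Gimap4 1424375_s_at (thick black line) and the 5 probe sets of other genes closest to it, GFP positive arrays left. All 6 lie below 0 on the GFP positive and above 0 on the GFP negative arrays, which follows from the choice by closeness to Gimap4.

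In the partner list, which holds known GIMAP partners and other BCL2-family and ATG8-type genes, the genes that passed were higher. The list held BCL2-family genes, the chaperone gene Hspa8, ATG8-type genes and Gsk3b, which encodes a kinase that Gimap5 restrains in T cells. Of 12 tested, 6 were higher, 0 lower and 6 did not pass by limma, where 19.3% of all probe sets tested were higher and 13.2% lower. The median change was 0.34, against -0.02 over all. The list takes 1 probe set per gene. With the whole table cut in that way, 3248 of 13194 were higher and 2309 (17.5%) lower, and the list held 6 higher and 1 lower. Gabarapl2, the partner of Gimap6, averaged 8.04 ± 0.13 in GFP positive and 7.49 ± 0.05 in GFP negative cells (SD, n = 3 each), a rise of 0.56. Gabarap rose by 1.02, Gsk3b by 0.88, the survival gene Mcl1 by 0.67, Bak1 (a pore-forming death effector) by 0.36 and Map1lc3b (LC3B) by 0.32. Bak1 rose by 0.24 with the offset and lost its call without GFP negative 1 (0.35). The call of Map1lc3b ended when GFP negative 1, GFP negative 3, GFP positive 2 or GFP positive 3 was left out (0.27 to 0.34). Bcl2, the survival gene whose product GIMAP proteins bind, changed by -0.28 (limma adjusted p = 0.056) and passed in 5 of 15 other settings, and Bcl2l1 changed by 0.03.

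Genes of resting and naive T cells, the state in which GIMAP transcripts are known to be abundant, moved in both directions. Of 18 tested, 6 were higher, 3 lower and 9 did not pass, beside the 19.3% and 13.2% of all probe sets tested. The lower calls thus lay near the background. Over the whole table at 1 probe set per gene, 3248 of 13194 were higher and 2309 (17.5%) lower. The median change of 0.02 was near that of all probe sets (-0.02), and it ran from 0.01 to 0.12 when 1 array was left out and turned to -0.08 with quantile normalization and -0.10 with median centring. Klf2, a quiescence factor, changed by -3.21, Rasgrp2, an activator of RAP1 in adhesion, by -1.37 and the homing receptor gene Ccr7 by -0.31. Bcl11b, a T lineage factor, rose by 1.57, the antiproliferative genes Btg2 and Btg1 by 1.39 and 0.86, and Slfn2, which upholds T cell quiescence, by 1.39. Cd27, a costimulatory receptor gene, rose by 0.55 and Foxp1, a factor that keeps naive T cells quiescent, by 0.46. With the offset Klf2 changed by -1.70 and Btg2 by 0.77, and Ccr7 lost its call without any 1 array other than GFP positive 1 (-0.34 to -0.26). Foxp1 lost its call when replicate 2 or 3 of either group was left out (0.37 to 0.46). Il7r, a survival receptor chain, averaged 5.76 ± 0.23 in GFP positive and 5.85 ± 0.87 in GFP negative cells (SD, n = 3 each) and did not pass.

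The samples carried the markers of their labelled cell type. Of 9 T cell markers tested, 5 were higher, 2 lower and 2 did not pass. Cd3e, Cd3g, Cd247, Cd8a and Cd8b1 rose by 0.55 to 1.24, while Cd2 and Cd5 changed by -1.03 and -0.54. The log2 of their summed linear signal was 13.07 to 13.24 in GFP positive and 12.66 to 12.92 in GFP negative samples. Most markers of other cells were dim, and 27 of 38 averaged below 2 (log2) in both groups. The brightest was the B cell marker Cd79b, at 4.35 in GFP positive and 4.50 in GFP negative cells. That is above the Gimap5 set, at 3.77 and 4.27. The summed B cell markers, 8 genes of which 0 of 3 tested passed, read 5.11 to 5.36 in GFP positive and 5.18 to 5.46 in GFP negative samples. The summed endothelial markers, of which 1 of 3 tested rose (Pecam1, which leukocytes also express), read 4.94 to 5.09 in GFP positive and 4.52 to 4.67 in GFP negative samples. The 10 myeloid and dendritic markers summed to 5.12 to 5.22 in GFP positive and 5.11 to 5.24 in GFP negative samples, with Cd68 higher by 1.11 and Flt3 lower (-0.47). The call of Flt3 ended without GFP negative 1, GFP negative 3 or GFP positive 2 (-0.46 to -0.42). NK markers summed to 2.49 to 2.63 in GFP positive and 2.49 to 2.78 in GFP negative samples, with 0 of 1 tested passing. CD4 T cell markers summed to 4.66 to 4.78 in GFP positive and 4.48 to 4.61 in GFP negative samples, with 1 of 3 higher (Zbtb7b, by 0.42) and Cd4 itself at 2.82 in GFP positive and 2.87 in GFP negative cells. Zbtb7b lost its call without GFP negative 1, GFP negative 3, GFP positive 2 or GFP positive 3 (0.33 to 0.43). Erythroid and platelet markers summed to 4.32 to 4.47 in GFP positive and 4.53 to 4.74 in GFP negative samples, with 1 of 2 lower (Itga2b, at -0.47). With the offset of 32, Cd68, Pecam1, Zbtb7b, Itga2b and Flt3 were still called, at 0.15, 0.32, 0.12, -0.11 and -0.06. The part of these shifts in the fall of the GIMAP genes was not tested.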

How the data were processed

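Total RNA of 6 sorted samples was labelled with biotin and read on an Affymetrix array each, as the labels' protocols say. The authors' deposited table holds log2 signal values. The unit was read from their range, since the submitters' processing notes name only Affymetrix Expression Console. For the summary algorithm, background treatment and normalization, nothing is given in the sources used here. The number of arrays limits the precision.

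Values were used as deposited. Of 45101 probe sets, 64 are controls, 34945 carry 1 symbol, 932 several and 9160 are not listed in the platform annotation. Probe sets whose mean over the 6 arrays lay at or above the 40th percentile (1.27) were tested, 27022 in all. Groups were compared with limma 3.58.1 in R 4.3.3 (lmFit, eBayes, group only, two-sided), with Benjamini-Hochberg adjustment over all probe sets tested and a threshold of 0.05. The code was tested on simulated data. In gene lists a gene is its probe set with the highest mean. Of the lists, 12 of 13 genes of the partner list and 18 of 20 resting T cell genes were analysed here. The text names every member, Hdac7, up to 6 cluster neighbours a side, list members that passed with a few fixed ones, and the 5 probe sets of other genes most like the brightest member. Alternatives were other filters, scalings, offsets, priors, a replicate block, 1 probe set per gene and left-out arrays. Members and lists were chosen with earlier results of these data known. Promoter sequences are RefSeq's (GRCm38.p6, all 8 genes matched). The array names no build, so gene coordinates were used for order alone.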

Additional observations from a re-analysis of the deposited data

How the results depend on the processing

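All 11 Gimap probe sets kept their direction in every one of the 15 alternatives that held them. All those tested were called lower, with 8 genes at 1 probe set each, 10 sets at the 60th percentile filter and 11 with no filter, quantile normalization, median centring, the offset or the robust prior. The share of all probe sets tested that was called lower moved between these settings. It was 17.5% at 1 probe set per gene, 17.7% at the 60th percentile filter and 7.56% with no filter. Quantile normalization gave 16.4%, median centring 23.2%, the offset 11.6% and the robust prior 13.8%. Leaving out 1 array gave 10 to 11 called, the exception being Gimap5, beside 8.82% to 14.7% of all probe sets tested called lower. Without GFP negative 1 and GFP positive 3 together 7 of 11 were called, and Gimap1, Gimap5, Gimap6 1456762_at and Gimap7 1444283_at missed the threshold (limma adjusted p of 0.0549, 0.059, 0.0523 and 0.0566). That setting leaves 2 arrays a group, and 5.95% of all probe sets tested were called lower in it. Over all probe sets tested, 5218 were higher and 3568 lower. With 1 probe set per gene there were 3248 and 2309 of 13194, and without those 2 arrays 2765 and 1609. Median centring gave 6263 lower. Leaving out 1 array gave 3886 to 5551 higher and 2383 to 3967 lower. The share of calls that were higher was 59.4% on the deposited values, 49.9% with quantile normalization and 39.3% with median centring, which moved the median change of all tested from -0.02 to -0.14. The Gimap median was then -1.08. Of the partner list, Bcl2 was called lower, making 1, with 1 probe set per gene, the 60th percentile filter and median centring. The offset and the robust prior did the same, and 0 were lower when 1 array was left out. The median of the resting T cell list turned to -0.08 with quantile normalization and -0.10 with median centring. Same-numbered arrays deviated together with correlations of 0.30, 0.24 and 0.08, and all 6 arrays correlated best with their own number, a hint from the data and not the design. With the replicate block 11 Gimap sets were called (largest adjusted p 0.0343), with 5179 higher and 3487 lower. Of the other named genes called, Tmem176a and Ccr7 lost their calls with it (limma adjusted p of 0.0583 and 0.0679). The cause of these shifts was not tested. No detection calls were used, so depth of signal limits the dim sets most.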
